A study of Mus musculus with 6 samples.

Results

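St8sia1, St8sia4, St8sia6, St6gal1 and St6galnac3 are 5 sialyltransferase genes whose RNA was followed here in T cells sorted from mouse kidneys, with and without ischemia. They were chosen by symbol from the 32285 genes in the count files, with their levels in each library and their relation to Ccr7 detection already known, so those values are descriptions. The other 15 sialyltransferases of the mouse serve as the setting for them. Kidneys came from male wild-type C57BL/6J mice of 7 to 8 weeks, either labelled as normal (control) or taken after both renal pedicles had been clamped for 30 min and reperfused (IR). CD45+ T cells bearing the αβ T cell receptor were sorted into CD4, CD8 and double negative (DN, neither co-receptor) cells, and each of the 6 groups was 1 single-cell library. The labels do not say how many mice fed each library.

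Sialyltransferases sit in the Golgi and move sialic acid from CMP-sialic acid onto the ends of sugar chains on proteins and lipids. The products set the negative charge of the T cell surface and serve as ligands for Siglecs and other lectins, and naive and activated T cells are known to carry different sialic acid linkages. St8sia1 encodes GD3 synthase, which adds a further sialic acid to a ganglioside. St8sia4 encodes a polysialyltransferase that builds long sialic acid chains on a few proteins, among them the chemokine receptor CCR7. St8sia6 encodes an enzyme that makes disialic acid mainly on O-linked glycans, St6gal1 encodes the enzyme that caps galactose on N-linked glycans and so makes ligands of CD22, and St6galnac3 encodes an enzyme that adds a branch sialic acid to gangliosides and O-linked glycans. Ccr7, whose receptor guides naive and central memory T cells into lymph nodes, is the state gene against which the 5 were set.

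In the GRCm38 annotation all 5 are protein-coding genes with long introns. St8sia1 lies at chr6:142821545-142964452 on the minus strand, St8sia4 at chr1:95587682-95667571 on the minus strand, and St8sia6 at chr2:13651021-13794064 on the minus strand. St6gal1 lies at chr16:23224740-23360350 on the plus strand and St6galnac3 at chr3:153198266-153725174 on the minus strand. The intronic length was 59799 bases for St8sia4, between 130695 and 135380 bases for St8sia1, St8sia6 and St6gal1, and 517915 bases for St6galnac3. Of the overlapping genes that are in the count files, the antisense gene BC106179 at the start of St6gal1 had between 2 and 100 UMIs per library and the others at most 7. Further overlapping genes are not in the count files and could not be counted. The study states default settings of the Cell Ranger pipeline, without saying how strand was treated, so reads of St6gal1 and BC106179 cannot be told apart with certainty.

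The promoters of the 3 genes that were higher with Ccr7 are shown because those genes moved together across cell states. Each window runs 5′ to 3′ from 250 bases before to 50 bases after a RefSeq start on GRCm38.p6, and all 5 genes had at least 1 window (St6gal1 had 3, of which the first is shown, and the St8sia6 start lies inside the GENCODE gene). Capitals mark matches, on either strand, to the TCF/LEF motif (CTTTGAA or CTTTGAT) or the KLF motif (CCACCC), the motifs of 2 factor families of naive T cells. St8sia1 is read from chr6:142964403-142964702 on the minus strand, St8sia6 from chr2:13793471-13793770 on the minus strand, and St6gal1 from chr16:23224490-23224789 on the plus strand.
St8sia1: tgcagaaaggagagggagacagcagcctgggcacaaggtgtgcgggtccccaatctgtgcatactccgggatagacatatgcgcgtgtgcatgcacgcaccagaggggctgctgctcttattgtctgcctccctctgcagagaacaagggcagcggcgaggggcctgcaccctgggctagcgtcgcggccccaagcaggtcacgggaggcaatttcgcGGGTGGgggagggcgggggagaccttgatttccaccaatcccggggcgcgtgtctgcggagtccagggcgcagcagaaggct
St8sia6: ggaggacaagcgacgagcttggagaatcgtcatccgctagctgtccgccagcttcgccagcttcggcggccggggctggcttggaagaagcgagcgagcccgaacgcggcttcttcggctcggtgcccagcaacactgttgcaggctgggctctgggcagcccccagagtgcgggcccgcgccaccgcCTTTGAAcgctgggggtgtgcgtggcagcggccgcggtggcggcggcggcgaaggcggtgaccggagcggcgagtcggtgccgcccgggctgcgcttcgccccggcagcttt
St6gal1: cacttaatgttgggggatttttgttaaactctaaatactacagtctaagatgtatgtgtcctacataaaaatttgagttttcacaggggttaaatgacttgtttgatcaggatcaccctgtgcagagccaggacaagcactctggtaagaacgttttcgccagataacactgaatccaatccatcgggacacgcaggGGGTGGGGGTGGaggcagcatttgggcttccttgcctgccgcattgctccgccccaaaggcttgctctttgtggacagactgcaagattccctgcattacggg
St8sia6 held 1 TCF/LEF match, at base 189 of its window, and 8.65% of 32851 windows of the same length held at least 1. St8sia1 held 1 KLF match at base 219 and the St6gal1 window shown held KLF matches at bases 198 and 204, against 31.5% of all windows. Of the other St6gal1 windows, the second held KLF matches at bases 28 and 33 and the third held 0. St8sia4 and St6galnac3 each held 1 KLF match too, at bases 113 and 206 of windows not shown. The RUNX motif (TGTGGTT, in 5.27% of windows) was found in the St8sia4 window at bases 40 and 58, and the ETS motif (CCGGAA, in 14.9% of windows) in none of the members' windows. GC content was 64.7% in the St8sia1 window, 72.0% in that of St8sia6 and 48.0% in that of St6gal1, with a median of 52.7% over all windows. These matches describe the letters in the windows and nothing of binding.

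The 48152 cells kept had medians of 6626 to 8361 UMIs (counted molecules) in the control libraries and 1450 to 2351 in the IR libraries, so IR values rest on fewer molecules. Cd3e, a T cell receptor subunit, was found in every library at 601 to 1085 CPM, the usual scaling of UMIs to a common library total. Cd4 was at 210.5 and 145 CPM in the control and IR CD4 libraries and at 0.154 to 0.459 elsewhere. Cd8b1 was at 1372 and 1080 CPM in the CD8 libraries and at 1.33 to 6.24 elsewhere, so the RNA matched the sort labels. After 125 barcodes carrying genes of other cell types had been removed, summed B cell markers ran from 2.29 to 11.1 CPM in control and 12.2 to 40.9 CPM in IR libraries (4 of 5 markers detected in each), and summed myeloid markers from 1.37 to 5.62 and 7.58 to 28.1. Summed hemoglobin genes ran from 1.16 to 1.28 CPM in control and 19.8 to 27.5 CPM in IR libraries, and the part of these cells and of free RNA in the values below was not tested. Intervals in parentheses are exact 95% intervals for counting error only. Of the cells, 512 carried a barcode found in more than 1 library of their condition, and leaving them out changed no count of called members. With 1 library per group no difference between groups could be tested.

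St8sia1, the GD3 synthase, was a gene of CD4 and CD8 cells. Its level was 61.5 (59.4 to 63.7) CPM in control CD4, 49.98 (47.9 to 52.1) in control CD8 and 3.49 (3.03 to 3.99) in control DN cells. After IR it was 39.8 (36.7 to 43.1) CPM in CD4, 38.9 (34.2 to 44.0) in CD8 and 2.68 (1.38 to 4.67) in DN cells. Both DN libraries were far below the other 4, whose intervals were apart except for IR CD4 and IR CD8. The pair of DN libraries overlapped each other.

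St8sia6, the O-glycan disialyltransferase, was a gene of CD4 cells. It reached 38.3 (36.6 to 40.1) CPM in control CD4 and 28.0 (25.5 to 30.8) in IR CD4 cells. CD8 cells held 1.56 CPM in control and 1.53 after IR, on 71 and 10 UMIs. DN cells held 0.395 CPM in control and 0.892 after IR, on 24 and 4 UMIs. The RNA was concentrated in few cells, since 1% of the control CD4 cells held 38.3% of its UMIs and 1 cell held 40 of them.

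St6gal1, the N-glycan capping enzyme, was found in all subsets and was lowest in DN cells. Its level was 151 (148 to 155) CPM in control CD4, 94.7 (91.9 to 97.6) in control CD8 and 41.5 (39.9 to 43.2) in control DN cells. After IR it was 83.4 (78.9 to 88.1) CPM in CD4, 81.9 (75.1 to 89.1) in CD8 and 20.5 (16.5 to 25.2) in DN cells. Among the 6 libraries, IR CD4 and IR CD8 alone overlapped.

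St8sia4, the polysialyltransferase, had its highest level in DN cells and the narrowest spread of the 5 across subsets. Control values were 346 (341 to 351) CPM in CD4, 261 (256 to 265) in CD8 and 401.5 (396 to 407) in DN cells. IR values were 169 (162 to 175), 109 (102 to 118) and 223 (209 to 237) CPM. All 6 intervals were apart, and each control library was above every IR library.

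St6galnac3, the branch-adding enzyme, was high in CD4 and DN cells and low in CD8 cells. Control levels were 952 (943 to 960) CPM in CD4, 197 (193 to 201) in CD8 and 993 (985 to 1001) in DN cells. IR levels were 373 (363 to 382), 57.9 (52.2 to 64.0) and 669.5 (646 to 694) CPM. No intervals overlapped. Positive cells held means of 7.19 UMIs in control CD4, 2.84 in control CD8 and 7.74 in control DN cells, with up to 126 in 1 control CD4 cell. In the shallower IR libraries the means were 2.05, 1.26 and 1.85 in CD4, CD8 and DN cells.

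The share of cells with at least 1 UMI, after each cell had been thinned to 1000 UMIs, gave the same pattern between subsets. St6galnac3 was found in 42.0% of control CD4, 12.1% of control CD8 and 47.1% of control DN cells, and in 16.3%, 2.74% and 30.3% after IR. St8sia4 was found in 23.5%, 17.3% and 26.2% of the control cells and in 9.495%, 5.89% and 13.5% of the IR cells. St6gal1 was found in 10.9%, 5.67% and 2.86%, and in 4.61%, 4.29% and 1.19% after IR. St8sia1 in DN cells (0.259% and 0.216%) and St8sia6 in CD8 and DN cells (0.0323% to 0.0801%) were near the limit of detection. The removed barcodes with genes of other cell types were set beside these shares. Their median depths before thinning were 7157 UMIs for 35 control and 2136 UMIs for 79 IR barcodes. The removal rule also took barcodes with Cd3 UMIs, so they can hold T cells as well as other cells, and they are no measure of free RNA alone. Of the control barcodes 5.71% (0.70 to 19.2) held St8sia1, 2.86% (0.0723 to 14.9) held St8sia6, and 11.4% (3.20 to 26.7) held each of St8sia4, St6gal1 and St6galnac3. Of the IR barcodes 1.27% held St8sia1, 0% (0 to 4.56) held St8sia6, 7.59% held St6gal1, and 5.06% held each of St8sia4 and St6galnac3. The shares of St6galnac3 in CD4 and DN cells lay above the upper bound of these barcodes (26.7% in control and 12.46% in IR). That of St8sia4 in IR DN cells, with an interval of 12.45% to 14.7%, was not apart from the bound. Because the barcodes can hold T cells, this comparison does not separate expressing cells from free RNA. No library-wide share was read as a share of expressing cells. Without thinning, St6galnac3 was found in 72.3% of control CD4 and 87.5% of control DN cells.

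DN cells were compared with CD4 and CD8 cells of the same condition. A gene was called different at a ratio of at least 2-fold with at least 10 CPM in the higher library. Between control DN and CD4 cells 2.77% of all genes were called, 1.40% as lower in DN, and 3 of the 5 sialyltransferases were called, all lower in DN. The log2 ratio was -4.14 (-4.35 to -3.94) for St8sia1, a 17.6-fold difference, -6.60 (-7.25 to -6.02) for St8sia6 and -1.87 (-1.93 to -1.80) for St6gal1. The same 3 were called between IR DN and IR CD4 cells, where 8.04% of genes were called and 2.10% were lower in DN, at -3.90 (-4.85 to -3.08), -4.97 (-6.86 to -3.61) and -2.02 (-2.34 to -1.72). St8sia4 and St6galnac3 were not called, at 0.22 and 0.06 in control and 0.40 and 0.85 in IR.

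Against CD8 cells, DN cells were lower for St8sia1 and St6gal1 and higher for St6galnac3. In control, where 6.58% of genes were called (3.55% higher and 3.03% lower in DN), the log2 ratios were -3.84 for St8sia1, -1.19 for St6gal1 and 2.33 (2.30 to 2.37) for St6galnac3. After IR, where 11.3% of genes were called (7.44% higher and 3.90% lower in DN), they were -3.86, -1.997 and 3.53 (3.38 to 3.69), and St8sia4 was called as well at 1.03 (0.89 to 1.17). A level at least 2-fold lower in DN cells than in CD4 and also in CD8 cells held for 0.917% of genes in control and 1.43% in IR, and St8sia1 and St6gal1 met it in both conditions.

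CD4 cells differed from CD8 cells in 2 of the 5 genes, both higher in CD4. St8sia6 was 24.6-fold higher in control (log2 4.62, 4.28 to 4.98) and 18.3-fold higher in IR (4.20, 3.30 to 5.27). St6galnac3 was 4.83-fold higher in control and 6.44-fold higher in IR. The background of called genes was 4.38% in control (2.61% higher in CD4) and 7.70% in IR (3.43% higher in CD4). St8sia1 and St6gal1 differed by 0.30 and 0.68 on the log2 scale in control and by 0.03 (-0.18 to 0.25) and 0.03 (-0.12 to 0.17) in IR.

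Between IR and control libraries the members were mostly lower in IR, as were many genes. In CD4 cells 22.7% of genes were called and 14.8% were called lower. St8sia4 (-1.04) and St6galnac3 (-1.35, -1.39 to -1.31) were called lower, while St8sia1 (-0.63), St8sia6 (-0.45) and St6gal1 (-0.86) were under 2-fold. In CD8 cells, with 25.5% of genes called and 16.9% called lower, St8sia4 (-1.25) and St6galnac3 (-1.77, -1.92 to -1.62) were again called lower, while St8sia1 (-0.36) and St6gal1 (-0.21) were not. In DN cells, with 19.7% called and 10.3% called lower, St6gal1 was called at -1.02 (-1.33 to -0.72), on 92 IR UMIs, and St8sia4 (-0.85) and St6galnac3 (-0.57) were not. The count in DN cells is fragile, because the St6gal1 ratio lies at the threshold.

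The members' introns place them among genes with lower values in IR. Over all genes tested the median log2 ratio of IR over control was -0.26 in CD4, -0.36 in CD8 and -0.24 in DN cells. With the genes ordered into 20 bins of intronic length, the 5 members lay in bins 16 to 20, and the median log2 ratio of the bins was -0.90 for St8sia1, St8sia6 and St6gal1, -0.63 for St8sia4 and -1.12 for St6galnac3 in CD4 cells. The bins of St8sia4, St6gal1 and St6galnac3 had medians of -0.65, -0.83 and -0.80 in CD8 and -0.51, -0.72 and -0.34 in DN cells, so the values lay below those of all genes but did not fall steadily with length outside CD4 cells. Set against their bin, the ratios in CD4 cells were 0.27 for St8sia1, -0.40 for St8sia4, 0.45 for St8sia6, 0.04 for St6gal1 and -0.24 for St6galnac3, and no member stayed 2-fold different in any subset. In CD8 cells St6galnac3 was at -0.97 against its bin. The control and IR files also name different Cell Ranger versions, 5.0.1 and 6.0.1, although the labels give 6.0.1 for all, and condition and software cannot be told apart.

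Setting cells with a Ccr7 UMI against cells without one, within each library, split the 5 genes into groups. In control CD4 cells, 695 of 9248 cells were Ccr7-positive. St8sia6 was 336 (318 to 355) CPM in positive and 13.3 (12.3 to 14.4) in negative cells, a 25.3-fold difference. With Ccr7 called after thinning to 1000 UMIs it was 424 against 30.8 CPM, a log2 ratio of 3.78 in place of 4.66. St8sia1 was 278 (261 to 295) against 43.4 (41.5 to 45.3) CPM, and St6gal1 was 449 (428 to 470.4) against 126 (123 to 129.5) CPM. These 3 genes were high where Ccr7 was found. St6galnac3 went the other way, with 241.5 (226 to 257) CPM in positive and 1012 (1002 to 1021) in negative cells, and St8sia4 was 188 (175 to 202) against 359 (354 to 364.5) CPM. In this split 10.4% of all genes were called, 4.05% higher and 6.32% lower in positive cells, and 4 of the 5 members were, since St8sia4 stayed under 2-fold. Calling Ccr7 at 1000 UMIs left the count of called members within 1.5 times in 4 of 4 libraries and moved 9 of 20 ratios beyond their counting interval, by up to 1.95 on the log2 scale (St8sia6 in control CD8 cells).

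Control CD8 cells, 1564 of 9301 positive, gave the same directions. St8sia1 was 149.7 against 24.4 CPM (log2 2.62, 2.50 to 2.74, or 1.88 at 163 against 44.4 CPM with Ccr7 called at 1000 UMIs), St6gal1 was 256 against 53.4 CPM (2.26, 2.17 to 2.35) and St8sia4 was 142 against 291 CPM (-1.03, -1.12 to -0.95). The 3 were called, against 8.54% of all genes, 3.92% higher and 4.62% lower. St6galnac3 was 128 against 215 CPM, a smaller difference than in CD4 cells (-0.75 against -2.07), though the difference between subsets was not tested. St8sia6, rare in CD8 cells, had 58 UMIs in positive and 13 in negative cells, or 6.23 against 0.359 CPM.

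For members at 10 CPM or more the directions in the IR libraries were those of the control, with smaller ratios except for St6galnac3 in CD4 cells (-2.23 in IR and -2.07 in control). With Ccr7 called at 1000 UMIs that exception was gone, at -2.43 in IR and -2.57 in control. St8sia6 had 4 UMIs in positive and 6 in negative IR CD8 cells, from which no direction was read. In IR CD4 cells (2023 of 10174 positive, with 10.0% of genes called, 2.91% higher and 7.11% lower), St8sia6 was 77.0 against 16.5 CPM (70.2 against 23.3 with Ccr7 called at 1000 UMIs), St8sia1 was 85.1 against 29.1, St6gal1 was 164.5 against 64.2 and St6galnac3 was 93.5 against 439. These 4 were called, and St8sia4 at 109.6 against 182.5 CPM was not. In IR CD8 cells (2370 of 6402 positive, with 7.36% called and 2.03% higher), St8sia1 alone was called, at 57.6 against 28.4 CPM. This log2 ratio of 1.02 lay just past the 2-fold limit, and it was 0.97 as a mean over cells and 0.80 with the removed features kept in totals, where the call was lost. St6gal1 was 115 against 63.3, St6galnac3 was 42.6 against 66.4 and St8sia4 was 84.0 against 124 CPM there.

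DN cells almost lacked Ccr7. Only 31 of 8907 control and 23 of 4120 IR cells had a UMI, so counts are given alone. In the 31 control cells St6galnac3 had 116 UMIs, St8sia4 had 60, St6gal1 had 43, and St8sia1 and St8sia6 had 0. In the 23 IR cells the counts were 12, 4, 1, 0 and 0.

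**Figure D1:**
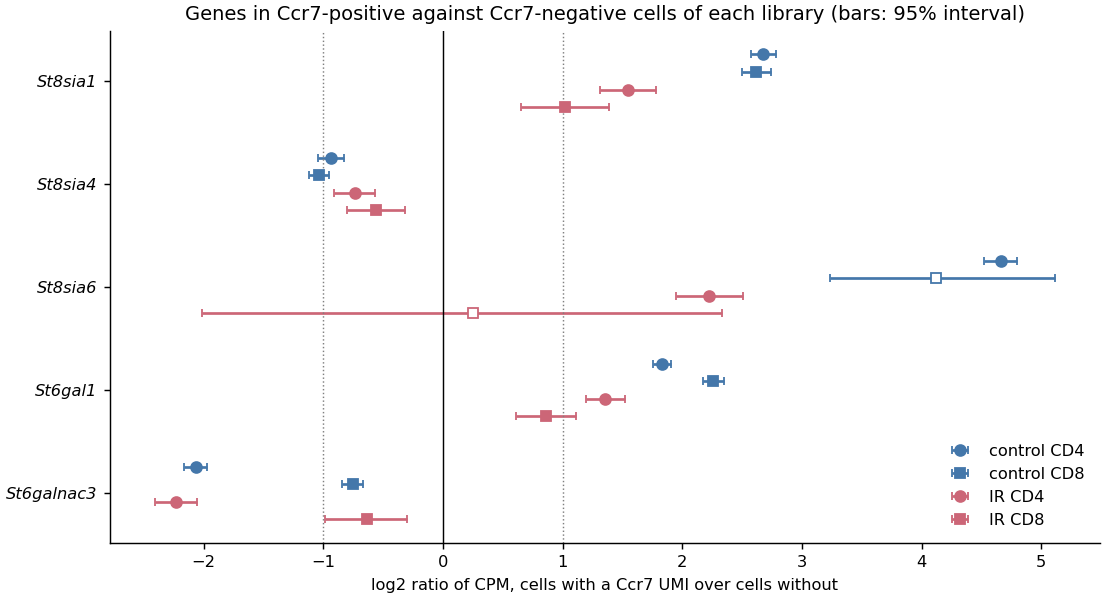
Log2 ratio of CPM in Ccr7-positive over Ccr7-negative cells of each CD4 and CD8 library, with exact 95% counting intervals, and open symbols for genes under 10 CPM in both classes. St8sia1, St8sia6 and St6gal1 lie above 0 and St8sia4 and St6galnac3 below 0 in both CD4 libraries, with St8sia6 of control CD4 cells at 4.66.

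The number of Ccr7 UMIs per cell was also followed. In control CD4 cells with 0, 1, 2 and at least 3 Ccr7 UMIs, St6galnac3 was 1012, 354, 219 and 118.5 CPM, so each further step was lower. St6gal1 was 126, 389, 463 and 514 CPM, and St8sia4 was 359, 230.5, 179 and 142. St8sia6 (13.3, 266, 395 and 386 CPM) and St8sia1 (43.4, 247, 332 and 282 CPM) made most of their difference at the first Ccr7 UMI. In control CD8 cells St6gal1 was 53.4, 214, 256 and 292 CPM and St8sia1 was 24.4, 135, 153 and 160.5, while St6galnac3 was 215, 126, 123 and 131 and thus had no step after the first. In IR CD4 cells St6galnac3 was 439, 119, 61.5 and 65.6 CPM, and St8sia6 was 16.5, 80.5, 78.7 and 67.1. Ccr7-positive and Ccr7-negative cells had means of 5635 and 5445 retained UMIs in control CD4, 5949.6 and 4680.3 in control CD8 and 1469.8 and 1543 in IR CD4 cells, and the part of depth in the steps was not tested.

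Lef1, which encodes a transcription factor of naive T cells, was not part of the choice of genes. Among control CD4 cells without a Ccr7 UMI, St8sia6 was at 19.4 (17.9 to 21.1) CPM in the 5165 cells with Lef1 and at 1.45 (0.916 to 2.17) in the 3388 without it. Lef1 thus marked St8sia6 cells in which no Ccr7 molecule was counted. Read from the enzyme's side at 1000 UMIs, 22.7% (17.5 to 28.5) of 238 cells with St8sia6 had Ccr7, against 1.59% of cells without it. The share was 9.72% with and 1.78% without St8sia1, 5.84% and 1.69% for St6gal1, and 0.624% and 3.24% for St6galnac3.

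Ccr7-positive cells were then compared between IR and control. Ccr7 itself was found in 2.14% of control CD4 and 10.9% of IR CD4 cells at 1000 UMIs, and in 5.03% and 26.8% of CD8 cells. Among the barcodes removed as non-T cells, 5.71% of 35 in control (exact interval 0.70% to 19.2%) and 6.33% of 79 in IR (2.09% to 14.2%) had a Ccr7 UMI at the same depth. The share of IR CD8 cells alone lay above these intervals. Those barcodes can hold T cells too, so no share was read as a share of cells that express Ccr7. The level of Ccr7 within cells chosen for a Ccr7 UMI is set in part by depth and was not compared. In Ccr7-positive CD4 cells St8sia6 was 336 CPM in control and 77.0 (67.4 to 87.7) in IR, a log2 ratio of -2.13 (-2.33 to -1.92). St8sia1 was 278 and 85.1 CPM (-1.71, -1.91 to -1.51), St6gal1 was 449 and 164.5 CPM (-1.45, -1.60 to -1.30) and St6galnac3 was 241.5 and 93.5 CPM (-1.37). These 4 were called, in a comparison in which 24.9% of all genes were called. Against the median of their intron bin, which was -0.92 for the first 3, St8sia6 was at -1.20 with 2.03% of the bin's genes lower, St8sia1 at -0.78, St6gal1 at -0.53 and St6galnac3 at -0.17.

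At 1000 UMIs, St8sia6 was found in 27.6% (21.4 to 34.4) of 196 control and 3.85% (2.79 to 5.17) of 1091 IR Ccr7-positive CD4 cells. The Ccr7-positive class differed between conditions in other genes too. For genes of naive T cells the log2 ratios were 0.05 for Tcf7, 0.09 for Dapl1, -0.95 for Lef1 (Tcf7 and Lef1 encode transcription factors of naive T cells), 1.07 for S1pr1, the receptor of lymphocyte egress, and 1.27 for Klf2, its regulator. For genes of memory and resident T cells they were -1.44 for Cd44, -1.49 for Cxcr6 and -2.56 for the integrin gene Itga1. Rgs1, listed with them, went the other way at 0.54, with 299 CPM in IR and 206 in control. Itgae was at -0.60, on only 2.02 and 3.06 CPM. These values are from all UMIs. With Ccr7 called at 1000 UMIs Cxcr6 was at -0.18 (40.7 CPM in IR and 46.1 in control), Itga1 at -1.26 and Rgs1 at 0.87. The part of these differences in the enzymes' ratios was not tested.

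In Ccr7-positive CD8 cells, where 25.9% of genes were called, St8sia1 (-1.38, -1.65 to -1.12), St6gal1 (-1.15, -1.34 to -0.97) and St6galnac3 (-1.58, -1.89 to -1.29) were called lower in IR and St8sia4 (-0.76) was not. Against their intron bins the 4 values were -0.50, -0.27, -0.71 and -0.10. In Ccr7-negative cells the pattern differed by gene. In CD4 cells, with 22.2% called, St6galnac3 was called lower at -1.21 and St8sia6 was at 0.31 (0.07 to 0.54). In CD8 cells, with 26.1% called, St8sia4 (-1.24) and St6galnac3 (-1.70) were called lower, and St8sia1 (0.22, -0.07 to 0.50) and St6gal1 (0.25, 0.05 to 0.43) were not. Against their intron bins none of these lower calls was left, with St6galnac3 at -0.12 in CD4 and St8sia4 at -0.58 and St6galnac3 at -0.91 in CD8 cells, while St8sia6 in CD4 (1.20) and St8sia1 (1.04) and St6gal1 (1.06) in CD8 cells came to lie more than 2-fold above their bin. With Ccr7 detection read at 1000 UMIs in every cell, the ratios before centring turned to -0.40 for St8sia6 in negative CD4 cells and to -0.50 (-0.75 to -0.26) for St8sia1 and -0.28 for St6gal1 in negative CD8 cells, so the direction of these 3 depended on how Ccr7 was called. Against the bins they were then at 0.49, 0.34 and 0.56, under 2-fold.

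Other state genes, which had no part in the choice, were used in the same way. Each library was split by 14 genes, which gave 73 splits with at least 50 positive cells, and 0.114% to 29.2% of all genes were called in a split (median 3.91%). St8sia4 was called in 0 of 73 splits, with log2 ratios from -0.62 to 0.84. St8sia1 reached 10 CPM in at least 1 class of 51 splits and was called higher in 12 and lower in 22. A gene near 10 CPM can enter through its higher class alone, as St8sia1 did in 1 split of control DN cells (log2 1.78), so these counts are a description. St8sia6 was called higher in 6 and lower in 17 of 27 splits, St6gal1 higher in 13 and lower in 20 of 73, and St6galnac3 higher in 7 and lower in 7 of 73. St8sia6 of control CD4 cells was higher with Lef1 (55.5 against 1.796 CPM, 0.786% of genes called), with S1pr1 (log2 3.31, 2.08% called) and with Il7r, which encodes the receptor for IL-7 (3.28, 1.22% called).

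Cells with the innate-like T cell factor Zbtb16 (PLZF) showed the opposite set. Control CD4 cells with Zbtb16 (2959 cells, 3.69% of genes called) had 29.7 CPM of St6gal1 against 223 in those without, 13.1 against 89.97 of St8sia1, 3.86 against 58.6 of St8sia6 and 1472 against 646 of St6galnac3. Thus 3 of the enzymes were lower and 1 was higher in these cells. IR CD4 cells with Zbtb16 (6.15% called) had 18.8 against 90.5 CPM of St6gal1 and 1033 against 299.985 of St6galnac3. CD4 cells with Klrb1c, which encodes NK1.1, had 36.9 against 169 CPM of St6gal1 in control (3.47% called).

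Cxcr6, a receptor of tissue-resident T cells, went with low St6gal1 in all 6 libraries. The log2 ratios were -1.79 in CD4, -1.77 in CD8 and -1.45 in DN cells of control kidneys, and -1.98, -1.67 and -1.64 in IR, while 5.11%, 4.83%, 5.12%, 5.23%, 9.32% and 4.40% of all genes were called in the same order. In control CD4 cells St8sia6 was 7.74 CPM with and 172 without Cxcr6. St6galnac3 was higher with Cxcr6 in control CD4 (1.31) and control DN cells (1.01). CD8 cells with Gzmk, which encodes granzyme K, had 27.5 against 147 CPM of St6gal1 in control (2.25% of genes called).

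In CD8 cells split by Itgae, which encodes the CD103 integrin chain, St8sia1 was 166 CPM in positive and 37.5 in negative cells of the control (log2 2.14, 2.02 to 2.27, with 3.28% of genes called) and 119.97 against 37.4 CPM in IR on 14 UMIs (20.1% called). St6gal1 was higher in these control cells too, at 206 against 82.7 CPM. Itgae itself was higher in Ccr7-positive than in Ccr7-negative control CD8 cells, at 75.1 against 15.5 CPM, and was at 25.2 against 13.1 CPM in IR CD8 cells. Control CD4 cells with Foxp3, the factor of regulatory T cells, had 24.3 against 63.2 CPM of St8sia1 (7.28% called).

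Within DN cells, St6gal1 differed with Fcer1g, though other state genes split it more widely. St6gal1 had log2 ratios from -2.72 to 1.67 in 13 control DN splits and from -1.64 to 2.30 in 10 IR DN splits. It was 76.6 CPM with and 29.1 without Fcer1g, which encodes the Fc receptor γ chain, in control (log2 1.40, 1.28 to 1.51, with 2.23% of genes called), and 46.8 against 15.8 CPM in IR (1.57, 0.90 to 2.21, with 9.38% called). In IR CD4 cells it was 32.4 with and 84.4 without Fcer1g, on 10 UMIs (10.7% called).

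**Figure D2:**
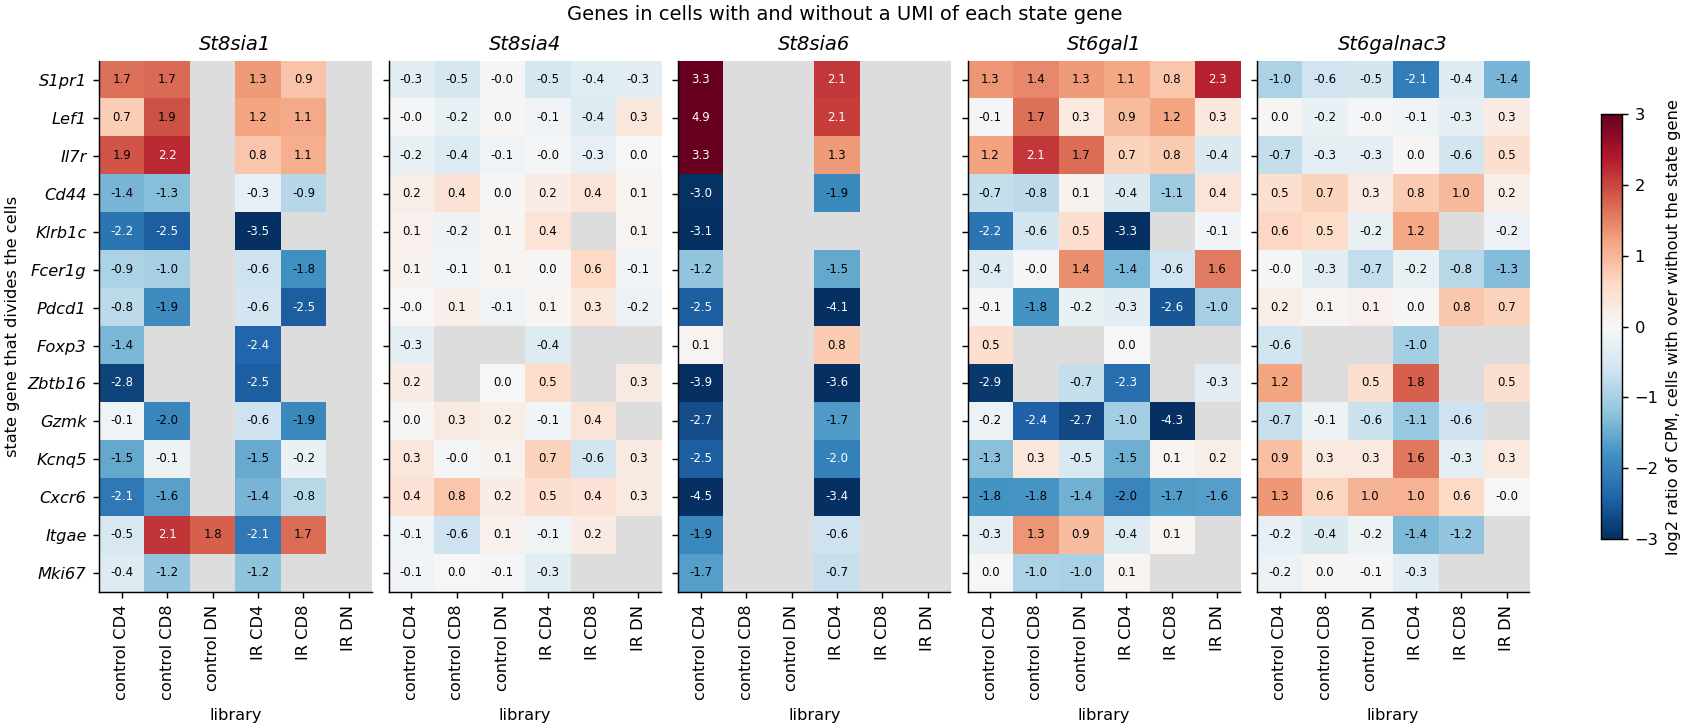
Log2 ratio of each member's CPM in cells with over cells without each of the state genes, for each library. Grey fields had fewer than 50 cells in a class, a level under 10 CPM, under 20 UMIs of the member or no interval. St8sia4 stays between -0.62 and 0.84 throughout, and Cxcr6 goes with low St6gal1 in all 6 libraries.

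The 5 RNAs were also looked for in the same cells. In control CD4 cells at 1000 UMIs, 35.96% of cells had none of the 5 and 16.2% had 2. St8sia1 and St8sia6 were found together in 44 cells against 11.0 expected from their separate shares, 4.01 times (2.91 to 5.38) as many. St8sia6 and St6gal1 met 3.25 times and St8sia1 and St6gal1 2.14 times the expected number. Those 3 thus shared cells more often than independent detection gives. St6galnac3 met St8sia6 at 0.330, St8sia1 at 0.575 and St6gal1 at 0.616 of the expected number, and met St8sia4 at 1.10. In IR CD4 cells the values were 2.86 (1.31 to 5.43), 2.59 (1.53 to 4.09) and 1.56 (0.87 to 2.57) for the first 3 pairs and 0.325, 0.440 and 0.358 for St6galnac3 with St8sia6, St8sia1 and St6gal1. In CD8 cells St8sia1 and St6gal1 met at 2.98 (2.14 to 4.04) times the expected number in control and 1.24 (0.50 to 2.56) times in IR. There St6gal1 and St6galnac3 met at 1.12 (0.87 to 1.42) and 1.10 (0.47 to 2.16) times the expected number, so the low value of this pair in CD4 cells was not seen. St8sia1 and St6galnac3 did meet less often in control CD8 cells, at 0.544 (0.311 to 0.884) of the expected number. In IR CD8 cells that pair was found together in 1 cell.

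Across 10 pools of cells (CD4 and CD8 cells of each condition with and without Ccr7, and DN cells of each condition), which share libraries and the Ccr7 split, the log2 levels of St8sia1 and St6gal1 had a Pearson r of 0.96 and those of St8sia4 and St6galnac3 of 0.90. St8sia6 had r of 0.73 with St8sia1 and 0.77 with St6gal1, and St8sia1 had -0.53 with St6galnac3. Among 8261 genes, the closest to St8sia1 were Cpm, Slamf6, Pgap1, Gm16158 and Tgfbr3, with r of 0.98 to 0.96. The closest to St8sia4 were Zfp683, which encodes the residency factor Hobit (r 0.99), Gimap4, Tab2, Ptpn7 and Hivep3. For St8sia6 they were Siah3 (r 0.94), Usp6nl, Pdlim4, Smim13 and Gm46367. For St6gal1 they were Arhgef11 (r 0.97), Slc35b3, B630019A10Rik, Rassf3 and the adhesion gene Pecam1, and for St6galnac3 they were Podnl1 (r 0.98), the lipid droplet gene Plin2, the cytokine receptor kinase gene Jak2, Trim36 and Rcbtb2. These likenesses describe 10 pools and no more.

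The other 15 sialyltransferases set the 5 in their family. Of all 20, 12 reached 10 CPM in control DN or CD4 cells. St3gal1, St3gal4 and St3gal6, which cap galactose by another linkage, had values of 44.3 to 63.1, 136 to 196 and 155 to 182 CPM in control and 22.7 to 35.0, 62.4 to 86.9 and 71.4 to 114 CPM in IR libraries. St3gal2 (4.29 to 19.3 CPM), St3gal3 (6.24 to 41.7), St6galnac4 (20.6 to 27.6) and St6galnac5 (5.82 to 14.0) reached 10 CPM in at least 1 library, and St3gal5 (1.53 to 7.21) and St6galnac6 (3.06 to 5.72) did not. St6gal2, St6galnac1, St6galnac2, St8sia2, St8sia3 and St8sia5 were at most 1.78 CPM in any library.

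Between DN and CD4 cells, 7 of the 15 reached 10 CPM in control and 6 in IR, and 0 were called in either condition, beside 2.77% and 8.04% of all genes. St3gal2 was called higher in CD4 than CD8 cells (1.71 in control, 1.38 in IR) and in DN than CD8 cells (1.22 and 1.35), and St3gal3 lower in control DN than CD8 cells (-1.10). Of all genes, 2.61%, 3.43%, 3.55%, 7.44% and 3.03% were called so, in the same order. Between IR and control, St3gal3 (-2.08, -2.003 and -1.45 in CD4, CD8 and DN) and St3gal4 (-1.22, -1.13 and -1.17) were called lower in every subset, and St3gal6 in CD4 (-1.12) and CD8 (-1.27). Of all genes, 14.8%, 16.9% and 10.3% were called lower in CD4, CD8 and DN cells, and 6.43% in all 3. In the Ccr7 splits, St3gal4 (-1.26 in control CD4, -1.29 in IR CD4), St3gal6 (-1.61, -1.31) and St6galnac4 (-1.23, -1.29) were called lower in positive cells, as was St6galnac5 in IR CD4 cells (-1.28, on 13 UMIs in positive cells). Of all genes, 6.32% in control CD4 and 7.11% in IR CD4 cells were called lower. In CD8 cells none of the 4 was called, with values in control and IR of -0.61 and -0.53 for St3gal4, -0.87 and -0.79 for St3gal6, -0.66 and -0.95 for St6galnac4 and 0.13 and -1.07 for St6galnac5, which was under 10 CPM in both.

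**Figure D3:**
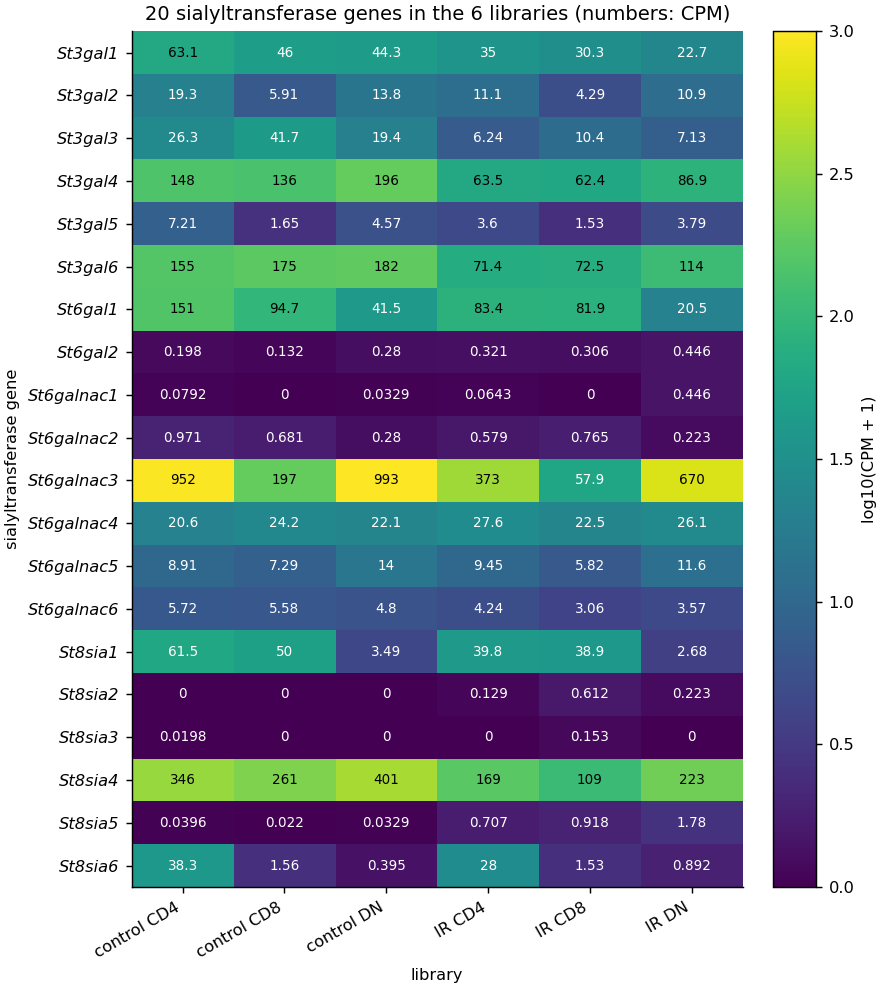
CPM of the 20 sialyltransferases in the 6 libraries. St3gal4 (62.4 to 196 CPM) and St3gal6 (71.4 to 182) vary less between subsets of a condition than St6galnac3 (57.9 to 993), and 6 genes stay at or below 1.78 CPM everywhere.

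Among genes that supply, change or remove sialic acid, Cmah, whose enzyme turns Neu5Ac into Neu5Gc, was at 58.8 CPM in control CD4, 175 in control CD8 and 18.3 in control DN cells, and at 83.8, 211 and 20.1 in IR. Its log2 ratio of DN over CD8 was -3.26 in control and -3.39 in IR. Of the 5 genes for making CMP-sialic acid, 1 was called in 1 comparison, Gne, the first enzyme of the pathway, at 32.3 CPM in IR DN and 13.5 in IR CD8 cells. There 7.44% of all genes were called higher in DN. Slc17a5, the lysosomal sialic acid exporter, was called lower in IR in all subsets (-1.20, -1.25 and -1.14), as were 6.43% of all genes. Of 9 genes that make acceptor sugars, Mgat5, the N-glycan branching enzyme, was called higher in IR DN than IR CD8 (2.00) and in IR CD4 than IR CD8 cells (1.13), and it was lower in IR than control CD8 cells (-1.03), as was the core O-glycan synthase C1galt1 (-1.04). Of all genes, 7.44%, 3.43% and 16.9% were called in the same directions in these comparisons.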

How the data were processed

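There were 6 libraries, 1 per group, so groups were compared without replicates and no test was run. The authors deposited unnormalized UMI counts per gene and cell (32285 genes), made with Cell Ranger against mm10. The headers of the deposited files name version 5.0.1 for control and 6.0.1 for IR, and the labels 6.0.1 for all. The study states default settings, without saying whether intronic reads were counted or how strand was treated. The 5 genes and all lists were chosen with earlier results of these data known.

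Following the published filters, cells needed at least 500 genes and at most 20% mitochondrial UMIs, and the top 5% of barcodes by UMIs were removed against doublets, with no doublet caller. That left 48277 of 54039 barcodes. A further 125 barcodes with 3 or more genes of non-T cells, or with 2 or more such UMIs and no Cd3 UMI, were dropped. In all, 512 remaining cells carried a barcode found in several libraries of their condition. Mitochondrial and ribosomal genes and Malat1 (104 features) were left out of totals. Retained UMIs per library were 45516402 to 60780736 in control and 4485384 to 15554351 in IR, so that the limit allowed by a count of 0 (3 counts) was 0.0494 to 0.0659 CPM and 0.193 to 0.669 CPM.

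Levels are CPM with exact 95% Poisson intervals, shares carry Clopper-Pearson intervals and log2 ratios exact conditional ones, all for counting error only. For shares, cells were thinned to 1000 UMIs, which left out 34 to 566 shallower cells per control and 148 to 420 per IR library. The genes named were the 5, every other sialyltransferase, pathway genes called in any comparison, the listed state genes and the 5 genes closest to each member. Some listed genes are not reported here. GENCODE M21 gave intronic lengths for 99.8% of genes, and promoters came from RefSeq GRCm38.p6. Alternatives covered filters, totals, thinning, TMM scaling in edgeR 4.0.16 (R 4.3.3) and the call of Ccr7. Python 3.11.15, numpy 2.4.6, pandas 2.3.3, scipy 1.17.1 and matplotlib 3.10.9 were used, and the ratio and interval code was tested on simulated data.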

Additional observations from a re-analysis of the deposited data

Results flagged for a closer look

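St6gal1 moved in opposite directions with Fcer1g in different IR libraries. Its log2 ratio of cells with over cells without Fcer1g was -1.38 in IR CD4 cells, on 10 UMIs in 187 positive cells, and 1.57 in IR DN cells. The difference between the libraries was not tested.

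Within CD8 cells, the log2 ratio of IR over control of St6gal1 was -1.15 in Ccr7-positive and 0.25 in Ccr7-negative cells. Within CD4 cells that of St8sia6 was -2.13 in Ccr7-positive and 0.31 in Ccr7-negative cells. Neither difference was tested. With Ccr7 read at 1000 UMIs in every cell, the values in negative cells were -0.28 and -0.40 and those in positive cells -1.24 and -2.60, so the sign in negative cells changed with how Ccr7 was called while the gap between the classes did not close.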

How the results depend on the processing

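No paired analysis was possible because each group was 1 library. No ratio of a member changed sign together with its call. The counts of called members that moved by more than 1.5 times were these. With a minimum of 50 CPM, 1 member was called in IR DN over CD4 (3 otherwise) and 1 in control and in IR CD4 over CD8 (2 otherwise). Centred on bins of intronic length, 0 were called between IR and control in CD4, CD8 and DN cells (2, 2 and 1 otherwise), 1 in Ccr7-positive CD4 cells (4 otherwise) and 0 in Ccr7-positive CD8 cells (3 otherwise). In Ccr7-negative cells the counts stayed at 1 in CD4 and 2 in CD8, but of other members: the lower calls of St6galnac3 and of St8sia4 and St6galnac3 were lost, and St8sia6 (1.20) and St8sia1 (1.04) and St6gal1 (1.06) lay higher. The within-class comparisons were chosen after seeing the data. Between IR and control DN cells the count of 1 became 2 with the removed features kept in totals or with no minimum CPM. It became 0 with the top 5% of barcodes kept, with no cell filters, with non-T barcodes kept, with a minimum of 50 CPM, and with a stricter removal of non-T barcodes added after seeing the data. In the Ccr7 split of IR CD8 cells the count of 1 became 2 with at least 2 Ccr7 UMIs, and 0 as a mean over cells or with the removed features kept. Of the ratios, thinning to 1000 UMIs moved 16 of 45 beyond their counting interval (by up to 1.25), keeping the removed features 40 of 65 (up to 0.42) and a mean over cells 19 of 65 (up to 0.49). TMM scaling left all 9 library counts within 1.5 times and 38 of 45 ratios within their counting interval, and leaving out shared barcodes left all 9 counts within 1.5 times and moved 3 of 45 ratios, all of St6galnac3 in comparisons with IR CD8 cells (3.73 in IR DN over CD8, 3.53 otherwise). The stricter removal of non-T barcodes moved 2 of 45, both of St8sia6 (-6.90 in IR DN over CD4, -4.97 otherwise, and -0.27 in IR over control CD4, -0.45 otherwise). St8sia6 in IR DN over CD8 cells, on a few UMIs, went from -0.78 to -1.77 and -2.78 under these settings, within its wide interval. Depth limits St8sia6 outside CD4 cells and St8sia1 in IR DN cells, which rest on 4 to 71 and on 12 UMIs.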
